A study of Mus musculus with 9 samples.

Results

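Rhox5 is a mouse homeobox gene on the X chromosome, and its RNA level is described here across 9 libraries of embryos. It is 1 of 16070 genes listed in the table of expression values. It was chosen by name, as a gene known for its silencing by DNA methylation and for its low values in the wild-type libraries. Its contrast with wild type is therefore given as a description with no test. Values are in FPKM, fragments counted for a gene, scaled to its length and to the total of mapped fragments in that library.

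Rhox5, first named Pem, was the founding member of the reproductive homeobox genes, a cluster of related transcription factor genes on the X chromosome that are used mainly in testis, ovary and placenta. It has a distal and a proximal promoter, and it is widely used as an indicator of epigenetic silencing because it becomes active in cells that lack DNA methyltransferases or certain histone methyltransferases. In preimplantation embryos it is known to be transcribed mainly from the X chromosome inherited from the father, which daughters receive and sons do not.

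The study edited arginine 17 of histone H3, a residue that the arginine methyltransferase Carm1 methylates, and compared such embryos with embryos lacking Carm1. RNA-seq was carried out on 3 groups with 3 libraries each. All embryos had the C57BL/6 background, were grown in vitro and were collected at E4.5, the late blastocyst, with an age counted as 4.5 days from microinjection. The groups are wild type (WT), an arginine-to-histidine substitution at that residue (H3R17H) and Carm1-/-. The series title names CRISPR-Cas9 as the editing method. The labels do not say what was injected into the WT embryos, whether an edited embryo carried its edit in every cell, or whether the libraries of a group came from separate embryos. The labels also describe the complementary DNA as made from a single cell. The p-values below therefore measure only the spread between these libraries, which may be technical. FPKM values carry no read numbers, so the depth behind each value is unknown.

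The targeted gene went against the labels. Carm1 ranged from 6.65 to 8.86 FPKM in WT, and the libraries labelled Carm1-/- held 6.44 to 12.7 FPKM, whereas the libraries labelled H3R17H held only 0.0215 to 1.88 FPKM. In the column names of the table the libraries labelled H3R17H begin with Carm and those labelled Carm1-/- begin with Hist. The labels are kept as given, and every direction between the edited groups is written for the libraries labelled H3R17H or Carm1-/-. Libraries of both groups together are called the 6 edited libraries. Blastocyst markers were present throughout: the 20 trophectoderm markers listed summed to between 1928 and 9692 FPKM in each library, and the 11 listed epiblast markers to between 198 and 342 FPKM.

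A promoter window of Rhox5 is shown first because the gene is known for its control by CG methylation. It is that of the upstream start, and the downstream start was not examined. Beside it, for comparison, are promoters of 2 genes of the X-linked Fthl17 ferritin-like family. The promoters shown were picked with the levels of the genes known, so their letters say nothing about why a gene was high or low. Each window runs from 250 bases before to 50 after the RefSeq start, on the strand of the gene, in build GRCm38.p6, with CG dinucleotides in capitals. Rhox5 lies at chrX:37754358-37754657 on the plus strand, Fthl17c at chrX:8976510-8976809 on the minus strand and Fthl17a at chrX:85249427-85249726 on the plus strand.
Rhox5: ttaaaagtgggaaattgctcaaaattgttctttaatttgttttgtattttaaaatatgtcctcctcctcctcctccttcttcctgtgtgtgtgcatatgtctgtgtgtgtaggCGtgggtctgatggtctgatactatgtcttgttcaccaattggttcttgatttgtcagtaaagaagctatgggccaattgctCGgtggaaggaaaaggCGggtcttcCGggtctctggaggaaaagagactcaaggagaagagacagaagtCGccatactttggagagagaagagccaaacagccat
Fthl17c: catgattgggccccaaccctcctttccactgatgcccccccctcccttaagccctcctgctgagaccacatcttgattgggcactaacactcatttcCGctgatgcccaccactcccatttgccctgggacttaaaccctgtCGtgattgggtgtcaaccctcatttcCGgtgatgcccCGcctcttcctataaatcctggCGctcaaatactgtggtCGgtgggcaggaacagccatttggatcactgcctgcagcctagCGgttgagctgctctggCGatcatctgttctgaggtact
Fthl17a: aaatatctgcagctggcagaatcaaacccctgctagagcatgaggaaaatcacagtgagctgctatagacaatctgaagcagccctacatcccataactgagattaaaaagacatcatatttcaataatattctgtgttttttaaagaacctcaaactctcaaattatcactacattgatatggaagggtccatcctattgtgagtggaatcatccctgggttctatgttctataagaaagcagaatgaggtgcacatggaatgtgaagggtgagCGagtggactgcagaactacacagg
The Rhox5 window holds 5 CG dinucleotides. Of 32851 RefSeq promoter windows of that length, 43.6% hold at most 5, and the median is 7. The windows of Fthl17c and Fthl17a hold 8 and 1. The Rhox5 window contains the letters CCGGAA, the core word read by ETS factors such as Gabpa, and GGCGGG, a word read by Sp1. Both words were searched on both strands, and their matches in the Rhox5 window do not overlap. They are also present in all 5 windows of Fthl17b to Fthl17f and absent from the Fthl17a window. CCGGAA occurs in 14.9% of all windows, GGCGGG in 35.3% and both in 8.69%. The Fthl17b and Fthl17c windows are identical. The files hold no methylation measurement, so whether these CG sites carried methyl groups was not measured here.

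The RefSeq model of Rhox5 spans chrX:37754608-37808878, and the GENCODE model chrX:37804842-37808876, both on the plus strand. The RefSeq start lies 50234 bases upstream of the GENCODE start, and the shown window is that of the upstream start. One value per gene does not tell which start was used. None of the 705 windows of 50 bases in the Rhox5 transcripts occurs in another gene's transcripts, so reads of that length are not shared with its relatives.

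Rhox5 was near 0 in each WT library and present in all 6 edited libraries. The WT libraries were listed at 0.656, 0.507 and 0.215 FPKM, the libraries labelled H3R17H at 45.4, 294 and 117 FPKM, and those labelled Carm1-/- at 16.7, 264 and 412 FPKM, in the order of replicates 1 to 3. The lowest edited library, Carm1-/- replicate 1, was 25.4-fold above the highest WT library. In both edited groups replicate 1 was the lowest.

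The group means were 0.459 ± 0.224 FPKM in WT, 152 ± 128 FPKM in H3R17H and 231 ± 199.6 FPKM in Carm1-/- (SD, n = 3 each). The ratio of means to WT was 331 for H3R17H and 503 for Carm1-/-. On the log2(FPKM + 1) scale the means were 0.53 ± 0.23, 6.87 ± 1.33 and 6.96 ± 2.46 (SD, n = 3 each), which places the edited groups 6.34 and 6.43 above WT. Both differences use the same WT libraries and the WT values that chose the gene. The spread within a group was large: the highest library exceeded the lowest 6.48-fold in H3R17H, 24.7-fold in Carm1-/- and 3.05-fold in WT.

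Rhox5 ranked among the abundant transcripts of the edited libraries. Its rank from the top was 11585, 12200 and 13001 of 16070 listed genes in WT. In H3R17H it was 1936, 369 and 874, and in Carm1-/- 3627, 404 and 261. In Carm1-/- replicate 3, 98.4% of the listed genes were below it. FPKM is scaled by gene length, which allows such ranks.

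**Figure D1:**
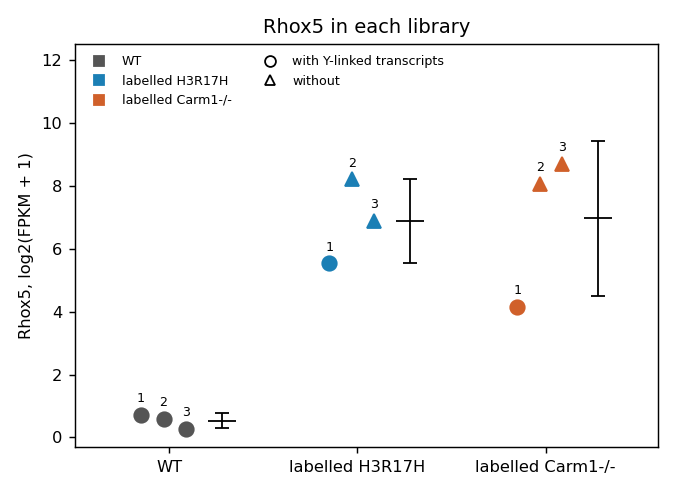
Rhox5 on the log2(FPKM + 1) scale in each of the 9 libraries, numbered by replicate and grouped by label, with circles for libraries with Y-linked transcripts and triangles for those without. Bars beside the points are the mean and SD of 3 libraries, 0.53 ± 0.23 in WT, 6.87 ± 1.33 in H3R17H and 6.96 ± 2.46 in Carm1-/-. Replicate 1 is the lowest of each edited group.

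Sex differed between the libraries, which bears on an X-linked gene known for expression from the paternal X chromosome. Transcripts of Kdm5d, Uty, Eif2s3y and Ddx3y, all on the Y chromosome, summed to 30.8, 35.7 and 30.7 FPKM in WT, 36.6, 0.00796 and 0 FPKM in H3R17H and 28.1, 0 and 0.00389 FPKM in Carm1-/-. All 3 WT libraries and replicate 1 of each edited group thus carried Y-linked transcripts, and the other 4 edited libraries had almost none. No WT library lacked them. Within the 4 edited libraries without Y-linked transcripts, sex and the edit cannot be told apart in a comparison with WT.

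Xist, a non-coding RNA that spreads over the X chromosome to be silenced, was 0.427, 0.335 and 0.187 FPKM in WT. It was 4.84, 28.2 and 16.6 FPKM in the libraries labelled H3R17H. In those labelled Carm1-/- it was 0.259, 32.5 and 18.9 FPKM. The 4 libraries without Y-linked transcripts were the highest, H3R17H replicate 1 held both Y-linked transcripts and 4.84 FPKM of Xist, and Carm1-/- replicate 1 was within the range of WT. Xist was under 1 FPKM in every WT library and entered the tested genes only through the edited libraries, so no test against WT is given.

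Rhox5 was above WT in the libraries that share the WT state of the Y-linked genes. H3R17H replicate 1 was 69.2-fold and Carm1-/- replicate 1 was 25.4-fold above the highest WT library. With libraries carrying Y-linked transcripts only, the log2 differences from WT were 5.002 for H3R17H and 3.61 for Carm1-/-, each from 1 library against 3 and with no test. These 2 libraries were lower in Rhox5 than the other 4 edited libraries. With a term for Y-linked transcripts in the model the log2 differences from WT were 4.26 for H3R17H and 4.35 for Carm1-/-. No WT library lacked these transcripts, so the edited libraries alone set that term, with 1 shared effect for both groups. The lowest edited library without Y-linked transcripts was 2.57-fold above the highest edited library with them. What part sex had in the Rhox5 levels of the edited libraries was not tested. This includes H3R17H replicate 1, which held 4.84 FPKM of Xist against at most 0.427 FPKM in WT.

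The difference between the edited groups takes no WT mean, and it was tested. The fit shared 1 estimate of spread over all 9 libraries. The WT values that chose the gene, with an SD of 0.23 on the log2 scale, thus entered the SE, interval and adjusted p. The SDs of the edited groups were 1.33 and 2.46. Rhox5 in the libraries labelled Carm1-/- was 0.09 above that in the libraries labelled H3R17H on the log2 scale (SE 1.02, 95% interval -2.17 to 2.34, limma adjusted p = 0.99). The groups overlapped, with 45.4, 294 and 117 FPKM against 16.7, 264 and 412 FPKM. An exact two-sided permutation test gave p = 1, where 3 against 3 libraries can go no lower than 0.1. The interval is wide in both directions, so these data do not show that the groups have the same level.

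The direction of that difference depended on single libraries. It was 1.495 without Carm1-/- replicate 1 (95% interval 0.13 to 2.86, adjusted p = 0.373, limma). The WT values that chose the gene again entered this interval, so its lower end above 0 is no evidence of a difference. The difference was -0.58, -0.46 and -0.78 without H3R17H replicate 1, Carm1-/- replicate 2 and Carm1-/- replicate 3. Over the 4 libraries without Y-linked transcripts, 2 per group, it was 0.83 (95% interval -0.41 to 2.06, adjusted p = 0.85). Of 11850 genes tested, 0 passed an adjusted p of 0.05 in this comparison (0% of tested genes), with 485 higher (4.09%) and 488 lower (4.12%) at an unadjusted p under 0.05. All 3 libraries labelled Carm1-/- were above all 3 labelled H3R17H for 5.13% of tested genes, and below them for 6.07%.

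The comparisons with WT also held 0 genes past the adjusted threshold (0% in each). For H3R17H, 759 genes were higher (6.41%) and 918 lower (7.75%) at an unadjusted p under 0.05, and for Carm1-/- 622 were higher (5.25%) and 733 lower (6.19%). The lowest adjusted p was 0.0765 and 0.109. The groups below are therefore described by their values, by the sign of the difference and by how many members had all 3 libraries of a group above or below all 3 WT libraries. Over all tested genes such separation was found in 13.3% higher and 15.6% lower for H3R17H, and 6.91% higher and 9.71% lower for Carm1-/-. Both comparisons share the WT libraries. Where a library holds several cells, fewer cells of a type and less RNA per cell cannot be told apart.

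Other Rhox genes were mostly listed at 0 in WT, and more of them were above 0 in the edited libraries. Of 34 other Rhox genes looked for, 17 are in the table and 4 passed the filter of at least 1 FPKM in 3 libraries. A gene at 0 in WT can pass that filter only through the edited libraries, so the 4 are not a sample of the cluster. Summed over the 17 genes, WT held 0, 2.49 and 0.474 FPKM, H3R17H 4.33, 61.0 and 22.9 FPKM, and Carm1-/- 8.24, 42.7 and 142 FPKM. The number of the 17 genes above 0 was 0, 1 and 1 in WT, 3, 9 and 5 in H3R17H and 2, 8 and 16 in Carm1-/-. The 4 libraries without Y-linked transcripts again held the highest sums.

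Rhox9, a member expressed in gonads and placenta, lies at chrX:37899097-37901770 and was listed at 0 in all 3 WT libraries. It was 2.69, 34.0 and 18.6 FPKM in H3R17H and 0, 15.9 and 8.08 FPKM in Carm1-/-. It entered the tested genes only through the edited libraries, so no test against WT is given. Rhox9 shares 6.28% of its 50-base windows with Rhox6.

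Rhox1, at chrX:37213804-37222258, was listed at 0, 2.49 and 0 FPKM in WT, at 0.365, 7.71 and 1.27 FPKM in H3R17H, and at 8.20, 8.001 and 15.2 FPKM in Carm1-/-. The libraries labelled Carm1-/- were all above both other groups, including the replicate with Y-linked transcripts. Rhox1, too, reached the filter only with the help of the edited libraries, and no test against WT is given.

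The Rhox2 copies are too alike to be separated by counting: Rhox2a shares 91.1% of its 50-base windows with other Rhox2 genes, and Rhox2e 100%. Rhox2a was listed at 0 in WT and reached 55.0 FPKM in Carm1-/- replicate 3, against 2.30 FPKM in replicate 2 and 0 in replicate 1. Rhox13, expressed in germ cells, was listed at 0 in WT, at most 3.47 FPKM in H3R17H and at most 8.54 FPKM in Carm1-/-. Carm1-/- replicate 3 was the library in which most members of the cluster were listed above 0.

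**Figure D2:**
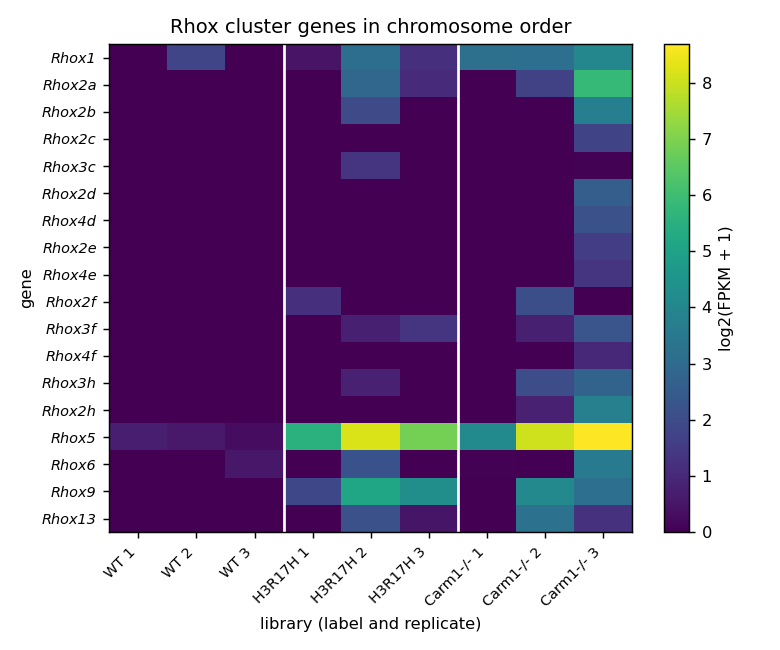
Listed Rhox genes (rows, in chromosome order) in each library (columns), coloured by log2(FPKM + 1). Rhox5 is the brightest row in every edited library, and Carm1-/- replicate 3 has 16 of the 17 other genes above 0.

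The Fthl17 genes are known, like Rhox5, for expression from the paternal X chromosome in female embryos. Fthl17b to Fthl17f summed to 2.87, 0 and 7.28 FPKM in WT, 3.10, 75.4 and 67.5 FPKM in H3R17H, and 11.3, 80.5 and 103 FPKM in Carm1-/-. The 4 libraries without Y-linked transcripts were 67.5 FPKM or more, and the 5 libraries with them 11.3 FPKM or less. H3R17H replicate 1, with 45.4 FPKM of Rhox5, was at 3.10 FPKM, within the range of WT. These 5 genes share between 46.9% and 93.7% of their 50-base windows with relatives, so their summed level is firmer than each value.

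Fthl17a, a relative that lies apart on the X chromosome and shares no 50-base window with them, had another pattern. It was 11.5, 14.6 and 16.6 FPKM in WT, 3.85, 7.88 and 3.002 FPKM in H3R17H, and 15.7, 2.69 and 14.7 FPKM in Carm1-/-. The H3R17H libraries were all below WT. Carm1-/- replicate 2 was also below WT, and replicates 1 and 3 were within its range. Xlr, a lymphocyte-regulated gene of one such family, was listed at 0 in all 3 WT libraries, at 0.551, 1.78 and 0.180 FPKM in H3R17H, and at 1.32, 6.12 and 2.77 FPKM in Carm1-/-. Xlr too was tested only through the edited libraries, and no test against WT is given. Of 22 tested X-linked genes of the Fthl17, Xlr and Mage families, 11 were higher and 11 lower in H3R17H. In Carm1-/- 18 were higher and 4 lower. Some of the 22 were tested only through the edited libraries. Mageb16 was lower, at 7.57 to 8.72 FPKM in WT, 2.05 to 4.30 FPKM in H3R17H and 4.02 to 6.48 FPKM in Carm1-/-.

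**Figure D3:**
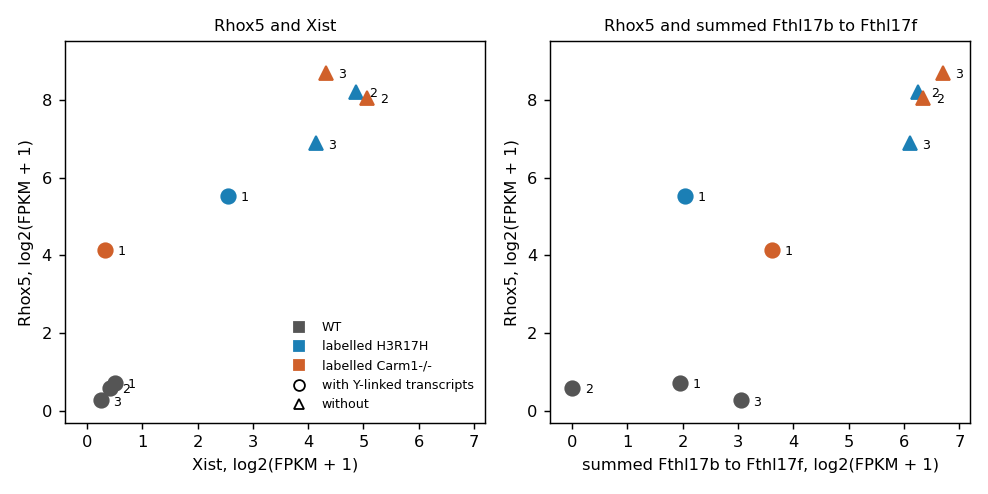
Rhox5 (vertical axis) against Xist and against summed Fthl17b to Fthl17f (horizontal axes), all as log2(FPKM + 1), with 1 point for each of the 9 libraries, coloured by label and numbered by replicate. The 4 triangles, the libraries without Y-linked transcripts, are highest on all axes, and replicate 1 of each edited group lies above WT on the Rhox5 axis.

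Genes elsewhere on the X chromosome differed less from WT. The median difference of 387 X-linked tested genes from the WT mean was 0.03, 0.16, 0.23 and 0.31 on the log2 scale in the 4 libraries without Y-linked transcripts, -0.24 in H3R17H replicate 1 and -0.06 in Carm1-/- replicate 1. For 11421 autosomal genes the median lay between -0.10 and 0.02 in all 9 libraries. Of 25 X-linked genes near the Rhox cluster, 18 are listed and 13 tested, and 10 were higher and 3 lower in H3R17H (median 0.20, against -0.03 for all tested genes), with 3 above all WT libraries and 0 below. Without replicate 1 of the edited groups 6 were above and 0 below (18.4% of all tested genes above). In Carm1-/- 7 were higher and 6 lower (median 0.16, against -0.04), with 0 above and 1 below all WT libraries, or 6 above and 1 below without replicate 1 of the edited groups (19.6% of all tested genes above). Rpl39, a ribosomal protein gene, was 122, 220 and 116 FPKM in WT, 274, 578 and 629 FPKM in H3R17H and 96.3, 578 and 461 FPKM in Carm1-/-. Its difference from WT in H3R17H was 1.66 (SE 0.60, adjusted p = 0.282, limma). Of 7 X-linked partners of Y-linked genes, such as Ddx3x, 5 were higher and 2 lower in H3R17H, and 7 were higher in Carm1-/-.

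The genes whose pattern was most like that of Rhox5 were sought over 7743 genes, by the Pearson correlation of log2(FPKM + 1) over the 9 libraries. All such values share the same libraries and the gap between WT and the edited groups, so they are descriptions. The highest were Rhbg, an ammonium transporter gene (r = 0.977, n = 9), Fam195a (0.966), Fthl17c (0.963), Zfp593 (0.954), Trim43b (0.945), the mitochondrial gene TrnA (0.945), Pmm1 (0.941), Them5 (0.941), Trim43a (0.937) and Rdh10, a retinol dehydrogenase gene (0.936). Rhbg was at 0.654 to 0.880 FPKM in WT, at 3.95, 19.8 and 9.46 FPKM in H3R17H and at 6.37, 17.4 and 22.2 FPKM in Carm1-/-, with replicate 1 lowest in both groups, as for Rhox5. Trim43b, a gene active in early embryos, reached 306 FPKM in Carm1-/- replicate 3 and was 8.93 FPKM in replicate 1, within the WT range of 1.13 to 10.1 FPKM.

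The lowest correlations were those of Cryz (-0.990), Smim14 (-0.975), Pkp4 (-0.974), B3gnt5 (-0.967) and Id2 (-0.967, n = 9 for each). Id2, which encodes an inhibitor of DNA binding that marks trophectoderm, was 308, 452 and 536 FPKM in WT, 74.5, 39.3 and 52.9 FPKM in H3R17H and 296, 32.4 and 25.7 FPKM in Carm1-/-. Of the 50 genes most like Rhox5, 6 were X-linked (12%, against 3.20% of the genes ranked): Fthl17c, Xist, Txlng, Wdr45, Pqbp1 and Tsr2. Xist was at rank 14 with r = 0.93.

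**Figure D4:**
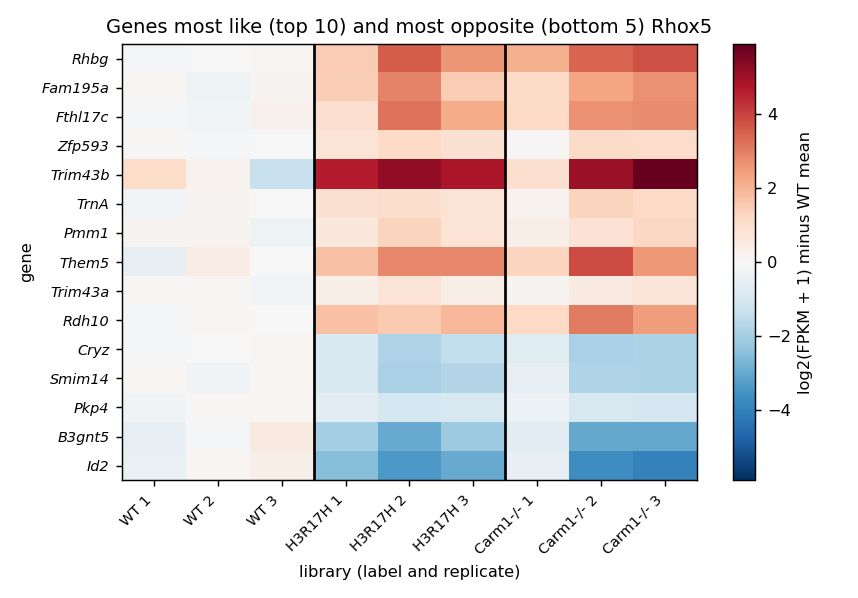
The 10 genes with the highest and the 5 with the lowest correlation with Rhox5 (rows) in each library (columns), coloured by log2(FPKM + 1) minus the WT mean of the gene. Carm1-/- replicate 1 is the edited library closest to WT for most rows, for example Trim43b at 8.93 FPKM and Id2 at 296 FPKM.

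DNA methylation genes were mostly lower in the edited libraries, without any passing the test. Of 10 tested writers and their recruiters, 7 were lower and 3 higher in H3R17H (median -0.48), and 4 were below and 1 above all WT libraries. In Carm1-/- 9 were lower and 1 higher (median -0.50), with 2 below and 0 above, or 5 below without replicate 1 of the edited groups, where 22.8% of tested genes are below. Dnmt3b, a de novo DNA methyltransferase, was 27.9, 34.8 and 32.0 FPKM in WT, 14.97, 14.1 and 13.4 FPKM in H3R17H and 29.6, 8.86 and 9.43 FPKM in Carm1-/-. Carm1-/- replicate 1 was within the range of WT. The log2 difference was -1.10 in H3R17H (SE 0.40, adjusted p = 0.282) and -1.15 in Carm1-/- (SE 0.40, adjusted p = 0.337, limma). Without Carm1-/- replicate 1 the latter is -1.68 with an adjusted p of 0.0125 (limma). The Carm1-/- libraries left in that fit lack Y-linked transcripts, which all WT libraries carry, so sex and the edit cannot be told apart. Leaving out that library also gave the most genes past the threshold. The part of DNA methylation genes in the Rhox5 level was not tested.

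Dnmt3a, the other de novo enzyme, was 0.81 lower in H3R17H (adjusted p = 0.328), and the maintenance enzyme gene Dnmt1 0.58 lower (adjusted p = 0.402, limma). Zfp57, which protects methylation at imprinted genes, was 1.06 lower in H3R17H and 0.90 lower in Carm1-/- (adjusted p = 0.275 and 0.405). Dnmt3l, a cofactor of the de novo enzymes, went the other way in H3R17H, with 43.7, 45.5 and 37.5 FPKM against 34.1, 32.6 and 23.6 FPKM in WT. Uhrf1, which recruits Dnmt1 to replicated DNA, was 39.3, 33.5 and 18.4 FPKM in WT and 8.15, 6.56 and 6.62 FPKM in H3R17H replicate 2 and Carm1-/- replicates 2 and 3, but 29.6, 29.1 and 32.9 FPKM in the other 3 edited libraries. Its values thus did not separate by group.

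None of the erasers and readers of DNA methylation passed the test. Of 8 tested, 6 were lower and 2 higher in H3R17H, and 7 lower and 1 higher in Carm1-/-. Tdg, a glycosylase that removes oxidised methylcytosine, was 20.6, 20.2 and 25.2 FPKM in WT, 9.61, 3.86 and 9.49 FPKM in H3R17H, and 15.5, 7.56 and 7.93 FPKM in Carm1-/-. All 6 edited libraries were below WT (log2 difference -1.49, adjusted p = 0.224, and -1.08, adjusted p = 0.353, limma). Gadd45b, a stress-responsive gene linked to demethylation, was 0.906, 5.39 and 0.0529 FPKM in WT and 7.32 to 16.9 FPKM in H3R17H. In Carm1-/- it was 5.32 to 9.02 FPKM, which overlaps WT. It reached the filter only with the help of the edited libraries. Tet2, a methylcytosine dioxygenase gene, was 20.3, 6.57 and 1.12 FPKM in Carm1-/- against 21.5 to 29.4 FPKM in WT (-1.87, adjusted p = 0.336, or -2.68 and 0.02 without Carm1-/- replicate 1, limma). As for Dnmt3b, sex and the edit cannot be told apart without that replicate.

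**Figure D5:**
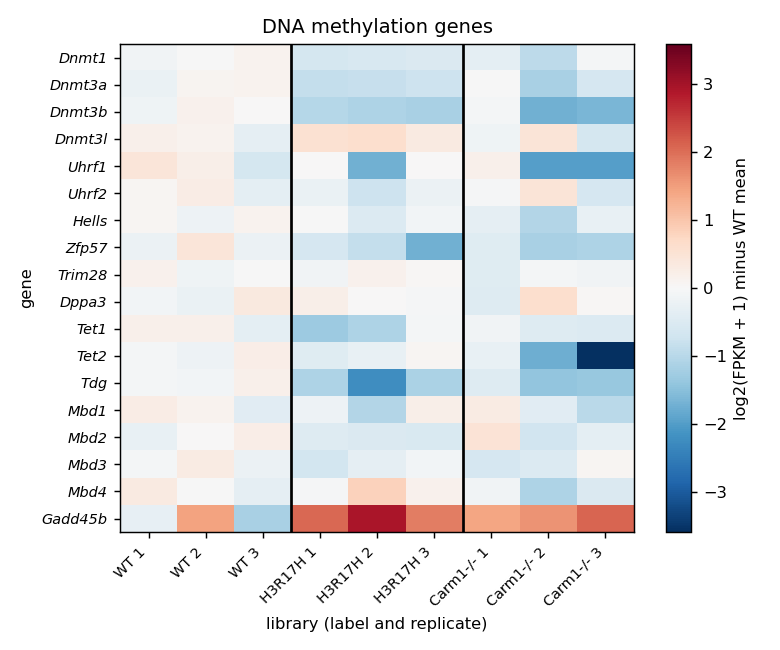
Tested genes of DNA methylation (rows) in each library (columns), coloured by log2(FPKM + 1) minus the WT mean of the gene. Dnmt3b and Tdg are lower than WT in all 3 H3R17H libraries and in Carm1-/- replicates 2 and 3, and Gadd45b is the row with the largest positive values.

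Germline genes that, like Rhox5, are known for silencing by promoter methylation were compared as a group. Of 32 looked for, 29 are listed and 23 tested. In H3R17H 15 were higher and 8 lower (median 0.63, against -0.03 for all tested genes), with 6 above and 1 below all WT libraries. In Carm1-/- 16 were higher and 7 lower (median 0.74, against -0.04), with 4 above and 0 below. Without replicate 1 of the edited groups 13 of the 23 were above all WT libraries in Carm1-/- (19.6% of all tested genes). None passed the test. Dmrtb1, 1 of the 23, was under 1 FPKM in every WT library and was tested only through the edited libraries. Syce1, Tex101, Sycp1, Zcwpw1 and Tuba3a, counted as higher in both groups, also reached the filter only with the help of the edited libraries. So did Dazl, Ddx4, Mov10l1, Tuba3b and Sohlh2, counted as lower in both. The counts and medians are therefore a description.

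Tex19.1, which acts in germ cells and placenta, was 154, 71.7 and 49.3 FPKM in WT, 261, 216 and 259 FPKM in H3R17H and 128, 187 and 269 FPKM in Carm1-/- (H3R17H difference 1.57, SE 0.39, adjusted p = 0.22, limma). Dpep3, a testis membrane dipeptidase gene, was 30.0, 35.8 and 36.6 FPKM in WT, 53.2, 68.7 and 44.1 FPKM in H3R17H and 87.2, 56.3 and 70.7 FPKM in Carm1-/-. All 6 edited libraries were above WT for Dpep3, Carm1-/- replicate 1 highest (differences 0.66 and 1.03, adjusted p = 0.298 and 0.225). Asz1, a gene of the piRNA pathway, was 4.42, 4.46 and 8.04 FPKM in WT, and 9.48 FPKM or more in each edited library (0.999 and 1.15, adjusted p = 0.264 and 0.275). Dazl and Ddx4 had no clear direction, with at most 1.76 FPKM in any library.

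Chromatin proteins that silence Rhox5 in other systems include histone enzymes, HP1 proteins and linker histones. Of 20 such silencers tested, 9 were higher and 11 lower in H3R17H, with 1 above and 5 below all WT libraries, and 5 were higher and 15 lower in Carm1-/-, with 2 above and 2 below. Without replicate 1 of the edited groups 4 silencers were above and 9 below all WT libraries in Carm1-/- (22.8% of all tested genes below). Cbx3, an HP1 protein gene, was 17.4, 19.8 and 37.3 FPKM in WT and 10.9, 1.24 and 10.3 FPKM in H3R17H (-1.87, adjusted p = 0.247, limma). Setdb1, a histone H3 lysine 9 methyltransferase, was 0.80 lower in H3R17H (adjusted p = 0.344) and Ezh2, the polycomb methyltransferase, 0.62 lower (adjusted p = 0.326, limma). H1f0, a linker histone gene, was 37.8, 105 and 187 FPKM in Carm1-/- against 12.2, 21.4 and 35.7 FPKM in WT (2.05, adjusted p = 0.266, or 2.67 and 0.02 without Carm1-/- replicate 1, limma). Here too, sex and the edit cannot be told apart without that replicate. Of 9 activators tested, 4 were higher and 5 lower in H3R17H, and 2 higher and 7 lower in Carm1-/-. Ets2, an ETS factor gene, was 1.81, 3.46 and 3.13 FPKM in WT and 0.375, 0.506 and 0.265 FPKM in H3R17H (-1.43), all below WT. In Carm1-/- it was at 4.42, 0 and 0.616 FPKM. It reached the filter only with the help of the WT libraries, so no test against WT is given. Gabpa, another ETS factor gene, lay between 15.1 and 23.1 FPKM in all 9 libraries.

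Genes that Rhox5 regulates in Sertoli cells could hardly be examined: of 11, 3 are listed and 2 tested. Pltp, a phospholipid transfer protein gene, was 11.0 to 16.4 FPKM in WT, 8.58 to 21.8 FPKM in H3R17H and 17.7 to 36.4 FPKM in Carm1-/-.

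No marker of the cell types of the embryo passed the test, and their sums were not tested. The trophectoderm marker sum was 6116 to 9119 FPKM in WT, 1928 to 5027 FPKM in H3R17H and 2320 to 9692 FPKM in Carm1-/-. Of 18 tested trophectoderm markers, 13 were lower and 5 higher in H3R17H, and 14 lower and 4 higher in Carm1-/-. Over all 11850 tested genes, 6198 were lower in H3R17H and 6359 in Carm1-/-. Gata2 and Tfap2a, counted as lower, reached the filter only with the help of the WT libraries. Hand1, counted as higher, reached it only through the edited libraries. These marker counts are therefore a description. The Carm1-/- sum was 9692 FPKM in replicate 1, above every WT library, and 2320 and 2859 FPKM in replicates 2 and 3, below every WT library. Krt8 and Krt18, at 2229 and 2663 FPKM in WT replicate 1, made up most of each sum. Dppa1, a trophectoderm marker, was 120, 233 and 337 FPKM in WT and 2.25, 9.83 and 42.9 FPKM in H3R17H (-4.20, adjusted p = 0.212, or 0.045 without Carm1-/- replicate 1, limma). Of 13 tested primitive endoderm markers, 10 were lower and 3 higher in each comparison. Lama1 and Sox17, counted as lower, reached the filter only with the help of the WT libraries, and Amn, counted as higher, only through the edited libraries. Pdgfra, a receptor gene of primitive endoderm, was 6.05, 9.44 and 9.07 FPKM in WT and 0.0073, 1.06 and 1.82 FPKM in H3R17H (-2.33, adjusted p = 0.175, limma). Gata6, another such marker, went the other way, at 47.2, 52.4 and 36.2 FPKM in H3R17H against 21.7 to 29.0 FPKM in WT. Zfp42, an epiblast marker, was 45.5 to 50.2 FPKM in WT and 74.3 FPKM or more in each edited library (0.92 and 1.15, adjusted p = 0.224 and 0.196). Most epiblast markers went the other way: of 11 tested, 7 were lower and 4 higher in H3R17H, and 6 lower and 5 higher in Carm1-/-. Sox2 and Prdm14, counted as lower, reached the filter only with the help of the WT libraries. Tdgf1, another epiblast marker, was 39.9 to 56.1 FPKM in WT and 5.94 to 18.4 FPKM in H3R17H (-2.10, adjusted p = 0.252, limma). In Carm1-/- Tdgf1 was 7.56 to 79.5 FPKM, which overlaps WT. The epiblast sums below include Zfp42. Primitive endoderm markers summed to 197 to 255 FPKM in WT, 158 to 197 FPKM in H3R17H and 92.9 to 219 FPKM in Carm1-/-, and epiblast markers to 198 to 255, 262 to 283 and 257 to 342 FPKM. Of 12 oocyte and cumulus markers looked for, 3 are listed, the oocyte genes Gdf9, Zp2 and Zp3. They summed to 0.274 to 1.31 FPKM in WT, 0.180 to 1.32 FPKM in H3R17H and 2.27 to 22.1 FPKM in Carm1-/-. Zp3 alone was 20.0 FPKM in Carm1-/- replicate 2. The part of cell composition in the Rhox5 level was not tested.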

How the data were processed

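Expression was measured by RNA-seq in 9 libraries of mouse E4.5 embryos, grouped by their titles into 3 groups of 3. Values are FPKM as deposited by the authors in 1 table of 16070 rows. Bowtie 0.12.2 and the build names GRCm38 and mm10 come from the submitters' processing notes. Which program counted fragments, with which annotation, is not given in the sources used here. Read numbers could not be recovered from the values, so depth is unknown and no counting interval is given.

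The 11850 genes that reached 1 FPKM in 3 or more libraries were tested on log2(FPKM + 1) with limma 3.58.1 in R 4.3.3, with an intensity trend, 1 fit of all 9 libraries and Benjamini-Hochberg adjustment over all tested genes at a threshold of 0.05. A pseudocount of 1 understates the change of low genes. The code was tested on simulated data. Rhox5 against WT was not tested, because its WT level was used to choose it. Genes were named by a rule: Rhox5, Carm1, Xist, the Y-linked sum, the Rhox cluster, the 10 genes with the highest and the 5 with the lowest correlation with Rhox5 (predicted gene models left out, highest value at least 5 FPKM), and, of each other list, up to 4 members by smallest p. Not every list's 4 are printed, and some members (Gabpa, for example) were named after their values were seen. No test against WT is given for genes that passed the filter only through the edited libraries, or for Ets2, which passed only with the WT libraries. Rhox5 and the 16 lists were chosen with earlier results of these data known. Promoter sequences and gene models were taken from RefSeq (GRCm38.p6), and transcript windows and the second models from GENCODE M21. Alternatives comprised the pseudocount, filter, scaling, groups in the fit, a term for Y-linked transcripts, a replicate block and leaving out each library.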

Additional observations from a re-analysis of the deposited data

How the results depend on the processing

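Rhox5 was above WT under every alternative run, a direction that the separation of the chosen gene's values fixes. For H3R17H the log2 difference was 7.79 with a pseudocount of 0.1, 4.49 with 5, 4.26 with a term for Y-linked transcripts and 5.002 with the libraries carrying them, and 5.68 to 7.01 when each library was left out. For Carm1-/- it was 3.61 with the libraries carrying Y-linked transcripts and 5.56 to 7.84 when each was left out. Carm1-/- against H3R17H ranged from -0.78 to 1.495 when each library was left out, and was negative without H3R17H replicate 1 (-0.58), Carm1-/- replicate 2 (-0.46) or Carm1-/- replicate 3 (-0.78). It passed the threshold under no alternative.

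Gene counts past the threshold depended on the setting. With a pseudocount of 0.1 there was 1 gene for Carm1-/- against WT and 1 for Carm1-/- against H3R17H, and with 5 there was 1 for H3R17H against WT and 1 for Carm1-/- against H3R17H. Median-of-ratios scaling gave 2 for Carm1-/- against H3R17H, and fitting only the groups compared gave 240 for H3R17H against WT (112 higher, 128 lower). Leaving out each library gave 0 to 125 genes for H3R17H against WT, 0 to 549 for Carm1-/- against WT and 0 to 10 for Carm1-/- against H3R17H, each highest without Carm1-/- replicate 1. The cause was not tested. Dnmt3b, Pdgfra, Dppa1 and Zfp42 in H3R17H passed with only the groups compared (adjusted p = 0.0401, 0.038, 0.0417 and 0.045, limma), and without Carm1-/- replicate 1 Tet2 and H1f0 passed in Carm1-/- (-2.68 and 2.67, adjusted p = 0.02 for both). In the latter fit the Carm1-/- libraries left lack Y-linked transcripts, which all WT libraries carry.

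When each library was left out, Uhrf1 in H3R17H ranged from -0.876 to 0.0143 (positive without H3R17H replicate 2). Uhrf1 was 0.45 with the term for Y-linked transcripts. Deviations from the group means correlated at r from -0.05 to 0.18 for same-numbered libraries, and from -0.25 to 0.27 for differently numbered ones. With 3 libraries per group, such values cannot tell whether the numbers pair the libraries. With the replicate block, Carm1-/- against H3R17H for Rhox5 was 0.0866 (SE 0.80, adjusted p = 0.983). The block changed no call.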
